A study of Mus musculus with 18 samples.

Results

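GCLiPP (Global CrossLinking Protein Purification) was applied to mouse T cells to find stretches of mRNA that proteins occupy, and the 70 nt peaks it yields were named for the gene whose 3′ UTR held them. Of the 27729 peaks in the mouse list, 27382 carried a name without a cell type prefix, 27215 of these matched a gene of the accompanying RNA-seq table, and 27185 lay on that gene's chromosome. The peaks described here are the 973 of those 27185 (3.58%), named for 355 of 6629 genes (5.36%), that did not touch the interval the RNA-seq table gives for their own gene by even 1 nt. They are called outside peaks, and the remaining 26212 are called inside peaks. A further 347 peaks whose names began with cd8 or th2 were left out, 30 matched peaks were on another chromosome than their gene, and 167 peaks matched no gene of the table.

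The peak list was pooled over 10 GCLiPP libraries, 6 from Th2 cells and 4 from CD8 T cells, so no peak has a value per library and no test between conditions was possible for the peaks. Both cell types came from mice labelled C57BL/6 (C57BL/6 J in the methods), were plated on anti-CD3 and anti-CD28, and were cultured for 5 days, the Th2 cells (from CD4 T cells) with IL-4, anti-Ifn-gamma and IL-2 and the CD8 T cells with IL-12 and IL-2. For 4 h before harvest the cells were kept in fresh medium (resting) or with PMA and Ionomycin (stimulated). The labels give UV crosslinking at 254 nm (8000 mJ) for all 18 samples, those of RNA-seq included. The 8 RNA-seq libraries held 1 library for each combination of Th2 or CD8, resting or stimulated, and with or without actinomycin D, which blocks transcription. Per the methods, actinomycin D was added after the 4 h of stimulation and kept on the cells for a further time before harvest. The methods list several lengths of this treatment, and the labels do not say which was used.

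The cleavage and polyadenylation machinery cuts a pre-mRNA downstream of a poly(A) signal, most often AAUAAA, and adds the poly(A) tail there. Many genes carry several such sites, so the same coding region can end in a short or a long 3′ UTR, and the extra sequence of the long form can hold elements bound by RNA-binding proteins, among them Pumilio proteins, proteins that bind AU-rich elements and poly(C)-binding proteins. T cells are known to use 3′ UTR elements to control cytokine and transcription factor mRNAs.

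Stretches of 30 bases from outside peaks show the elements counted below. They were read from GENCODE M21 transcripts (mm10), are written 5′ to 3′ on the strand of the gene with T for U, and were available for 543 of the 973 outside peaks. The first 6 hold a Pumilio-type word TGTANATA, in capitals, and lie in the outside peaks of Ppp1r12a (chr10:108278113-108278142, plus strand), Foxn3 (chr12:99190154-99190183, minus strand), Grap2 (chr15:80652467-80652496, plus strand), Lnpep (chr17:17525905-17525934, minus strand), Gprin3 (chr6:59349279-59349308, minus strand) and Wee1 (chr7:110143010-110143039, plus strand).
Ppp1r12a: ctgagtgacgcTGTATATAtaaataagtgt
Foxn3: tcatcatttatTGTAAATAacacttcccca
Grap2: tatttTGTAGATActttatatattcatggc
Lnpep: tcttgtggacaTGTACATAagccatgcaag
Gprin3: tctggccattgTGTATATAccataccaaaa
Wee1: tgTGTATATAaactgatcttggtaatactg

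The next set shows, in capitals, the AU-rich core ATTTA in D16Ertd472e (chr16:78543381-78543410, minus strand), Inhba (chr13:16031403-16031432, plus strand) and Rel (chr11:23737154-23737183, minus strand), the C-rich word CCCTCC in Eif4ebp2 (chr10:61428726-61428755, minus strand) and Il2rb (chr15:78479566-78479595, minus strand), and a poly(A) signal in Ccnd2 (chr6:127125392-127125421, minus strand).
D16Ertd472e: ggaagggtccacATTTAcaagctgggtgaa
Inhba: ttATTTAcgatatgtttaaagagataacgg
Rel: aaaatATTTAgatttcagagaggaggggag
Eif4ebp2: tgCCCTCCcagccctgtgggatggggtttc
Il2rb: ctcctgcccatcCCCTCCtgccaccggatg
Ccnd2: taaagtagcagattagtgtgAATAAAaaag

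The last set is shown because its 30 bases are not particular to 1 place. The Il6ra word (chr3:89868222-89868251, minus strand) was shared by 7 of the gene's 10 outside peaks. The Mesp1 word (chr7:79790464-79790493, minus strand) also occurred in transcripts of Eif1, and the Mau2 word (chr8:70010724-70010753, minus strand) in transcripts of Nme2. All letters are capitals here because the whole stretch is shared.
Il6ra: AAAGTGGGAGGGGGCAGGCCAGCTGGGGAG
Mesp1: CTTACCACTGTCCAAGGGATCGCTGATGAT
Mau2: GTGAAAACGGGCCGAGTGATGCTGGGGGAG

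Nearly all outside peaks lay downstream of their gene. Of the 973, 969 (99.6%) were beyond the table's 3′ end and 968 were on the gene's strand. The 4 peaks before the 5′ end were 3 of Tmem254a and 1 of the histone gene Hist2h3c1, and the 5 on the opposite strand were 4 of Hist1h4n and that same Hist2h3c1 peak. The gap between a peak and its gene had a median of 1218 nt, with quartiles of 445 and 2982 nt, and reached 276179 nt.

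By distance, 269 outside peaks of 156 genes lay less than 500 nt away and 158 lay at 500 to 1000 nt. A further 194 lay at 1000 to 2000 nt, 251 at 2000 to 5000 nt, 61 at 5000 to 10000 nt, and 40 peaks of 11 genes lay farther. The median score was 22 in the nearest bin, 18 at 2000 to 5000 nt and 19 beyond 5000 nt, and the difference was not tested because the pooled list has no replicates. The score is a whole number that accompanies each peak and whose definition is not given in the sources used here.

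**Figure D1:**
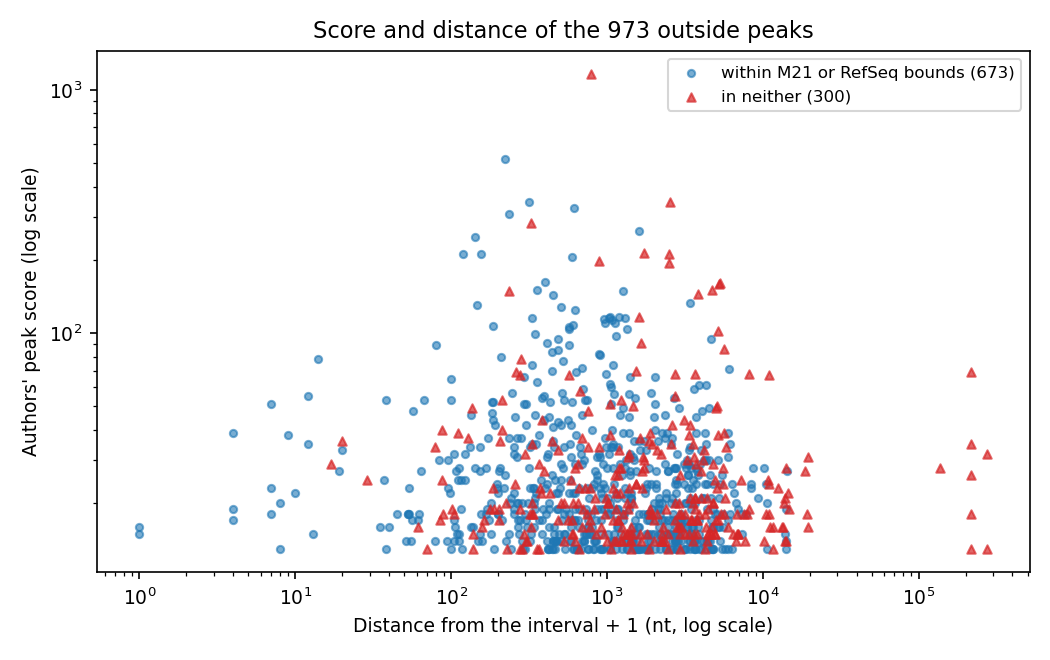
Score of each outside peak against its distance in nt from the gene bounds of the RNA-seq table, both on log axes, 1 point per peak. The median score was 22 below 500 nt and 19 beyond 5000 nt, and the median distance was 1218 nt.

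At the edge of the rule, 8 outside peaks lay 6 nt or less from the interval. The peaks of Snx9 (score 15) and Fryl (16) were adjacent to it, those of Prf1 (19), Hnrnpul1 (39) and Inpp4b (17) lay 3 nt away, and those of Arid5b (23), Fam133b (51) and Glg1 (18) lay 6 nt away. Just inside it, the peaks of Tigit (84) and Ctsw (13) overlapped by 1 and 2 nt, and 4 histone peaks, of Hist1h4k (48), Hist1h2bm (47), Hist1h2ai (51) and Hist1h1b (33), by 6 to 8 nt.

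Outside peaks had a median score of 20 (quartiles 15 and 32, range 13 to 1156), against 24 (quartiles 17 and 40, highest 22514) over all inside peaks and 23 over the 1107 inside peaks of the same genes. For 144 of the 355 genes every placed peak was outside. In the other 211 genes, which had peaks on both sides, the outside peak had the highest score in 83 (39.3%), tied in 5 and was below the inside peak in 123, and outside peaks held a median of 36.9% of the gene's summed score. Outside peaks were single in 177 genes, numbered 5 or more in 53 and 10 or more in 16.

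Inhba, which encodes the activin beta A subunit, had the most outside peaks. It spans chr13:16011851-16027211 on the plus strand, and 42 of its 43 peaks followed the 3′ end at gaps of 11 to 4314 nt. Their scores ran from 13 to 95 and held 96.7% of the gene's summed score, and the highest, 91 and 95, lay 409 and 485 nt past the end. M21 ends the gene 4410 nt farther downstream than the table does, so that all 42 outside peaks fall within the M21 bounds. The peaks of 95 and 35 (485 and 576 nt) held 30-base words that also occurred in transcripts of 1467 other gene names.

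Kcna3, the voltage-gated potassium channel Kv1.3, had 27 of 28 peaks outside, and they were of another kind. All 27 lay in neither the M21 nor the RefSeq bounds of Kcna3, and 22 of them, at gaps of 2218 to 14642 nt with a highest score of 67, were inside AI504432, a lincRNA gene on the same strand. The RNA-seq level of AI504432 ranged from 3392 to 11968 scaled reads over the 8 libraries. The other 5 lay before that lincRNA, at gaps of 526 to 1191 nt with scores of 15 to 33. Whether the peaks belong to Kcna3 or AI504432 transcripts cannot be told apart here.

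The other genes with the most outside peaks were Lnpep, an aminopeptidase (19 of 25 peaks), Eif4ebp2, an inhibitor of the cap-binding protein eIF4E (18 of 22), Gprin3 (16 of 17), Gatad2b, a subunit of the NuRD complex (16 of 16), Foxn3, a forkhead factor (15 of 17), Il12rb1, the receptor chain shared by IL-12 and IL-23 (15 of 24), Hipk2, a nuclear kinase (14 of 26), and Dusp4, a MAP kinase phosphatase (13 of 17). In Gatad2b the gaps ran from 111 to 3895 nt with scores of 13 to 37, and M21 extends the gene by 5287 nt. In Foxn3 the gaps ran from 414 to 4759 nt with a highest score of 62, and all 15 peaks were within both annotations. The 15 outside peaks of Il12rb1 (116 to 2043 nt, scores 13 to 60) were within the RefSeq bounds but not those of M21. The 13 of Dusp4 (84 to 1943 nt, scores 13 to 37) were in neither. These genes thus differ in which annotation holds their outside peaks.

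**Figure D2:**
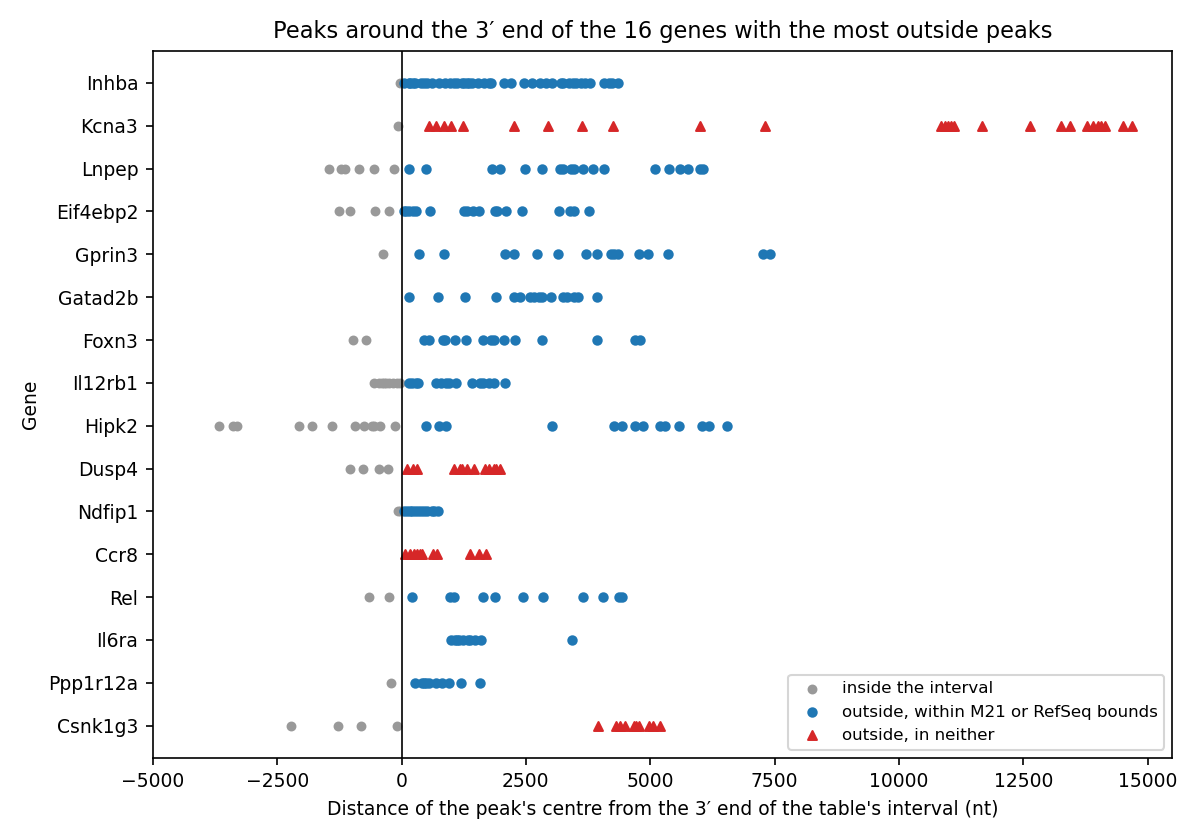
Position of peak centres relative to the 3′ end in the RNA-seq table (x axis, nt, positive downstream) for the 16 genes with 10 or more outside peaks, 1 row per gene. Grey points are inside peaks up to 5000 nt from the end, blue points are outside peaks within the M21 or RefSeq bounds of the gene, and red triangles are outside peaks in neither. The Inhba peaks run on to 4314 nt and are all blue, whereas the Kcna3 peaks are all red.

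The highest score, 1156, belonged to Ranbp2, a nuclear pore protein and SUMO ligase (chr10:58446852-58494155, plus strand). Ranbp2 had 2 peaks in all, with scores of 1156 and 197, and both were outside, at gaps of 789 and 893 nt. M21 ends Ranbp2 201 nt past the table's end, so neither annotation holds them, and the next gene on the strand, Ccdc138, begins 2955 nt past the end.

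Among the other genes of highest score, Pabpn1, the nuclear poly(A)-binding protein, had 5 of 7 peaks outside, with scores of 78, 248, 518, 115 and 108 within 13 to 603 nt, all in the RefSeq bounds only. Its highest inside score was 566. Ccnd2, cyclin D2, had 8 of 69 peaks outside, with scores of 48 to 347 at gaps of 56 to 573 nt in both annotations, and its highest inside score was 303. Nabp1, a single-stranded DNA binding protein, had outside scores of 194, 345 and 55 at 2496 to 2730 nt in neither annotation, and its highest inside score was 114. Thus the highest score was outside in Ccnd2 and Nabp1 and inside in Pabpn1.

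Ggps1, which makes geranylgeranyl diphosphate, had a single peak, of score 328 at 615 nt. Hnrnpa1, a splicing regulator, had 1 outside peak of 263 at 1594 nt and a highest inside score of 760. The outside peak was the higher in Tfdp1, the dimerisation partner of E2F factors (211 against 28), Cct6a, a chaperonin subunit (211 against 53), D16Ertd472e (206 against 50), Rnf149, a ubiquitin ligase (212 against 147), Cdc27, a subunit of the anaphase-promoting complex (151 against 87), Ndfip1, an adaptor of Nedd4-family ligases (150 against 86) and Mau2, a cohesin loader (160 against 49). In D16Ertd472e, 1 outside peak held 30-base words that also occurred in transcripts of many other genes. The Rnf149 peak lay 2500 nt away and inside Gm15832 and the small nucleolar RNA gene Snord89 on the same strand, which were at medians of 159.8 and 5.3 scaled reads. In all, 45 outside peaks of 23 genes scored 100 or more.

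For some of these genes the RNA-seq table gives little or no RNA. Mesp1, a mesoderm transcription factor, was at 0 in all 8 libraries but had 5 outside peaks with scores of 50 to 213, and all 41 of the 30-base words of its highest peak occurred in Eif1, which was at 4227 to 8311 scaled reads. The Mau2 peak of 160 shared all 41 of its words with Nme2, which was at 5.4 to 53.6 scaled reads. Gm5803, a processed pseudogene with 6 of 7 peaks outside and scores up to 284, had a mean of 6.83 scaled reads. Over the 543 outside peaks with sequence, 59 peaks of 33 genes held a 30-base word found at another locus. Inside peaks were not searched for such words, so whether this share differs from theirs is not known. Such words were in 1 of the 11 Ccr8 peaks, and transcripts of 490 other gene names held them. Reads from such copies and from the named gene cannot be told apart in the pooled list. A mean RNA level under 50 scaled reads was found for 21 of the 355 genes (5.92%, with 47 outside peaks), against 123 of the 6264 genes with inside peaks only (1.96%), and 17 of those 21 had all their peaks outside.

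The 3 genes with the farthest outside peaks, Tmem254a, Entpd4 and Hist1h4n, were at 0 in every RNA-seq library. Tmem254a (136426 to 276179 nt) has near-identical copies, Tmem254b and Tmem254c, which were also at 0 in every library. The Entpd4 peaks (216755 to 217591 nt) lay in Gm21685, which was also at 0 in every library, and those of Hist1h4n (18698 to 19611 nt) were on the opposite strand. After Kcna3 came Nup98, a nucleoporin (14308 nt), Patz1 (11562 nt), Fbxl17 (10690 nt), Aak1 (10615 nt), Tex15 (10531 nt) and Tespa1, which acts in T cell receptor signalling (10226 nt). All 5 outside peaks of Nup98 (13895 to 14308 nt, scores 13 to 27) were within both annotations of Nup98.

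Where other annotations end the gene was then compared. GENCODE M21 placed 470 outside peaks (48.3%) in a 3′ UTR of their own gene, 8 in another exon and 7 in an intron, and left 488 (50.2%) outside the gene, whereas 98.6% of inside peaks were in an M21 3′ UTR and 0.416% outside. RefSeq bounds held 609 outside peaks (62.6%), against 99.1% of inside peaks. Either annotation held 673 outside peaks and both held 421. The M21 3′ end lay beyond that of the table in 185 of the 355 genes (52.1%) by a median of 1631 nt, against 1206 of 6264 genes with inside peaks only (19.3%), by a median of 9 nt. It was at least 500 nt beyond in 148 genes (41.7%) and 336 genes (5.36%), respectively.

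**Figure D3:**
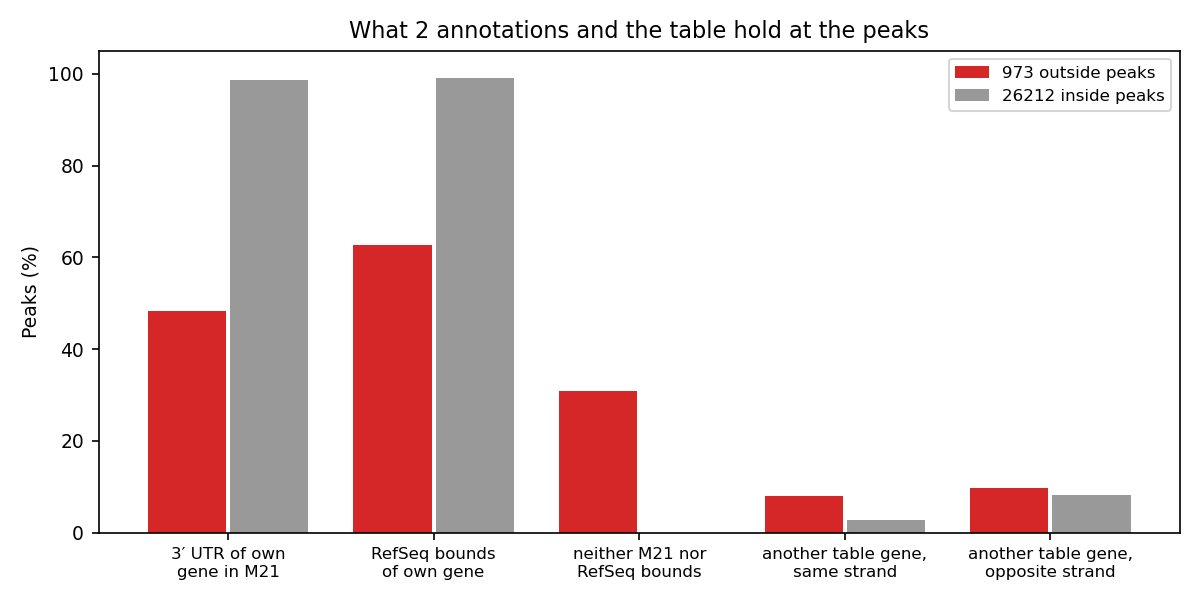
Percent of outside and of inside peaks (y axis, from 0) by their place in GENCODE M21, RefSeq and the table's other genes (x axis). The bars for an own-gene 3′ UTR stand at 48.3% of outside and 98.6% of inside peaks.

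In neither annotation were 300 outside peaks (30.8%) of 116 genes, against 7 inside peaks (0.027%). Their median gap was 1725 nt and their median score 19.5, against 1040 nt and 20 for the 673 within an annotation. Of the 300, 53 were inside another gene on the same strand and 35 belonged to 13 genes with a mean RNA under 50 scaled reads. Some were both, and 227 peaks in 97 genes were neither. After Kcna3 and Dusp4 (13), the most such peaks were found for Ccr8, a chemokine receptor of Th2 cells (11, at 28 to 1668 nt, scores 15 to 67), and Csnk1g3, a casein kinase (10, at 3923 to 5171 nt, highest score 18). Cd40lg, the CD40 ligand, had 6 of 10 peaks there, at 16 to 381 nt, with scores of 29, 40, 149, 78, 18 and 44, and its highest inside score was 46. Hs2st1, a heparan sulfate sulfotransferase, had 7 (3429 to 3855 nt, highest score 145), and 5 of these, with scores of 15 to 68, held 30-base words found in transcripts of 90 other gene names.

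Other genes lay near few outside peaks. Over all 973, 78 (8.02%) were inside another table gene on the same strand, against 2.70% of inside peaks, and 95 (9.76%) inside one on the opposite strand, against 8.32%. No outside peak overlapped a peak of another gene name, and 891 were nearer to their own gene than to any other gene with RNA on the strand. Among outside peaks of the same gene, 193 overlapped a neighbour.

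The share of peaks with each sequence word is given without a test. ATTTA was in 59 of 543 outside peaks (10.9%), 7.53% of the 1076 inside peaks of the same genes with sequence and 7.84% of all 25414 inside peaks with sequence. TGTANATA was in 11 outside peaks of 11 genes (2.03%), against 1.39% and 1.72%. AATAAA or ATTAAA was in 35 (6.45%), against 7.90% and 9.31%, TTTTTT in 24 (4.42%), against 5.48% and 4.96%, and CCCTCC in 11 (2.03%), against 4.65% and 5.23%. Words were searched on the gene's strand only, and ATTTA and ATTAAA can share letters. The median GC content was 44.3% in outside peaks, 47.1% in inside peaks of the same genes and 48.6% in all inside peaks. Since M21 transcripts supplied the sequence, outside peaks beyond every M21 transcript are not in these shares.

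**Figure D4:**
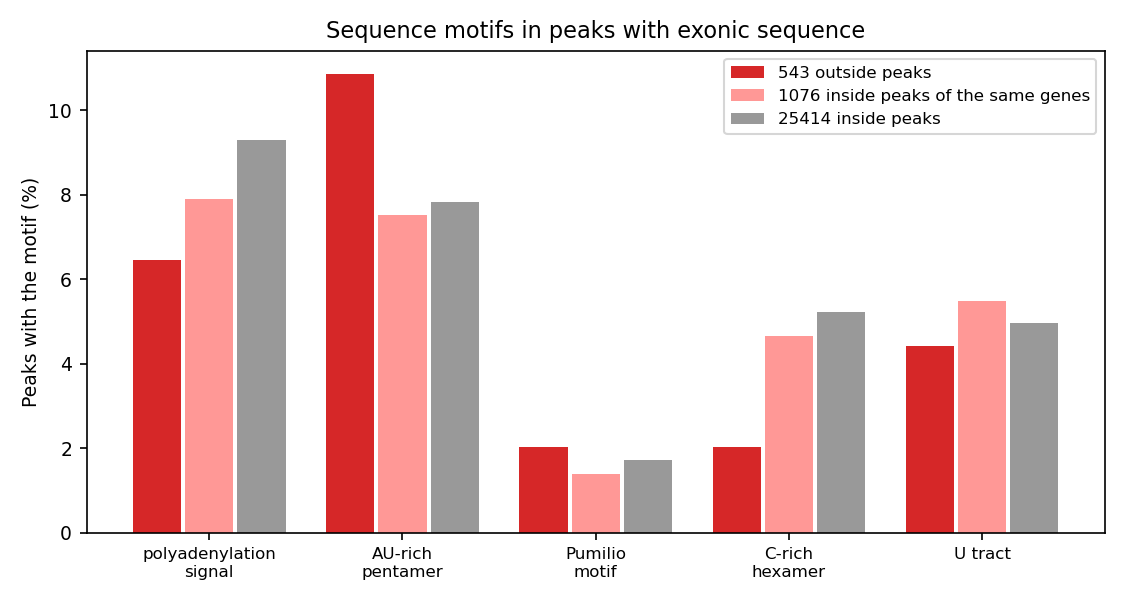
Percent of peaks (y axis, from 0) that hold each sequence word (x axis) among 543 outside peaks, 1076 inside peaks of the same genes and 25414 inside peaks. ATTTA stood highest in outside peaks (10.9%) and CCCTCC lowest (2.03%, level with TGTANATA).

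The outside peaks of T cell genes were described by function. Of the 23 cytokine and cytokine receptor genes with a peak, 5 (21.7%) had an outside peak, against 5.36% of all genes with a placed peak. Il3, a cytokine for myeloid progenitors and mast cells, had 1 of 3 (score 65, 99 nt, highest inside score 31), and Il6ra, the IL-6 receptor chain, had 10 of 10. The 7 Il6ra peaks at 966 to 1343 nt, had scores of 104 to 117 and held the repeated word printed above. Il2rb, the IL-2 receptor beta chain, had 1 of 11 (29 against a highest inside score of 646), Il12rb2 1 of 8 (21 against 56), and Ifnar1, a type I interferon receptor chain, 1 of 3 (49 against 22).

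Of 31 T cell transcription factors with a peak, 3 had an outside peak. Rel, the NF-kappaB subunit c-Rel, had 11 of 13 at 173 to 4390 nt, with scores of 13 to 35 and a highest inside score of 34. Ikzf3 (Aiolos) had 7 of 17 (53 against 63), of which 6 were in neither annotation, and Runx3, a factor of CD8 T cells, had 2 of 17 (49 against 307) at 5021 to 5814 nt in neither annotation. Of 18 T cell receptor and coreceptor genes with a peak, 1 had an outside peak, Cd28, with 2 of 47 and a highest score of 20 against 146 inside.

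In the other lists, outside peaks were found for 2 of 35 RNA-binding and decay genes (5.71%, Hnrnpa1 and Fxr1), 2 of 14 polyadenylation factors (14.3%, Pabpn1 and Papolg, a poly(A) polymerase with 2 of 4 outside) and 1 of 10 D cyclin and kinase genes (Ccnd2). They were found for 2 of 135 translation and ribosomal protein genes (1.48%), Eif4ebp2 and Rps6. Rps6, a small subunit protein, had 3 of 4 outside (99 against 104) but only 16.2 to 145.8 scaled reads in the RNA-seq table.

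RNA levels of the 355 genes were then compared between conditions. These gene totals are reads per gene scaled by the authors, and whether they include RNA from the outside peaks is not known. Of the 355 genes, 334 passed a minimum mean of 50 scaled reads and were tested among 10972 genes with limma on log2(value + 1), so folds of low genes are understated. The libraries held, as recovered from the values, 24154849 to 31042504 reads. Each condition was 1 library, and matched conditions served as replicates, so p-values measure only the spread between these libraries. Summed T cell markers were at 65839 to 113662 scaled reads. The Th2 markers summed to 30516 to 119708 in Th2 libraries and 81.7 to 512 in CD8 libraries, and the CD8 markers to 272434 to 496523 in CD8 and 95549 to 154001 in Th2 libraries. Most of the CD8 marker sum was Gzmb, at 255366 to 476654 in CD8 and 92569 to 149171 in Th2 libraries. Cd8a was at 10516 to 15750 in CD8 and 1331 to 2401 in Th2 libraries, and Cd8b1 at 6269 to 9591 and 1402 to 2361. Eomes overlapped between the cell types, at 111 to 715 and 68.1 to 369. Myeloid, NK and erythroid markers each summed to less than any T cell marker sum, at no more than 479, 373 and 9.84 scaled reads.

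With stimulation, in the 4 untreated libraries, RNA of 42 of the 334 genes with outside peaks rose and that of 12 fell, that is 54 genes (16.2%), against 11.3% of all genes tested (6.59% higher, 4.69% lower). Genes with inside peaks only passed in 12.6%. The median log2 fold change was 0.07 for genes with outside peaks and 0.03 over all genes. The genes that rose most included the activin subunit, a cytokine and the CD40 ligand.

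Inhba RNA was 191.5 scaled reads in resting and 33997.7 in stimulated Th2 cells, and 8.3 and 375.8 in CD8 T cells. Both cell types were higher with stimulation (log2 fold change 6.40, SE 0.548, limma with Benjamini-Hochberg adjusted p = 0.0236), and within each condition the Th2 level was above the CD8 level. Il3 RNA was 6.2 and 7537.3 in resting and stimulated Th2 cells and 4.1 and 226.4 in CD8 T cells, a log2 fold change of 7.75 (SE 1.153, limma adjusted p = 0.0383). Cd40lg RNA was 784.8 and 21517.8 in Th2 cells and 54.9 and 468.2 in CD8 T cells (log2 fold change 3.92, SE 0.444, limma adjusted p = 0.0297). In both cell types the stimulated library was the higher for each of these genes.

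Egr3, an early growth response factor with 8 of 9 peaks outside, rose by a log2 fold change of 5.73, and Gem, a small GTPase, by 4.09 (limma adjusted p = 0.0348 and 0.033). Rel RNA rose from 352.7 to 2634.4 in Th2 cells and from 536 to 5181.1 in CD8 T cells (log2 fold change 3.08, SE 0.163, limma adjusted p = 0.0131). Dusp4 (2.80), Pdcd1lg2, the PD-1 ligand PD-L2 (2.82), Il12rb1 (1.64), Kcna3 (1.49) and Ccnd2 (0.99) rose as well. Under the naming rule (mean of at least 250 scaled reads, same direction in every pair), Oip5 (-1.40) and Rnf125, a ubiquitin ligase (-1.32), fell most. Ston2 (-1.24), Ccr4, a Th2 chemokine receptor (-1.21), and Incenp, of the chromosomal passenger complex (-1.09), came next. Ranbp2, the gene of the highest peak, did not pass in any of the 3 contrasts, and its 8 values ran from 10793.9 to 23207.6 scaled reads.

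These calls rest on 4 libraries. With all genes of mean above 0 entered, or with all 8 libraries fitted, limma called 0 of the genes with outside peaks (102 and 66 at an unadjusted p under 0.05), and edgeR called 49 on the 4 libraries.

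Of the 5 cytokine and receptor genes with outside peaks, 1 passed with stimulation (Il3), and of the 3 T cell transcription factors 1 passed (Rel). Over the whole lists, 9 of 23 cytokine and receptor genes rose and the others did not pass (median log2 fold change 0.48), and 9 of 34 transcription factors rose and 2 fell (0.28), beside 6.59% higher and 4.69% lower over all genes.

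**Figure D5:**
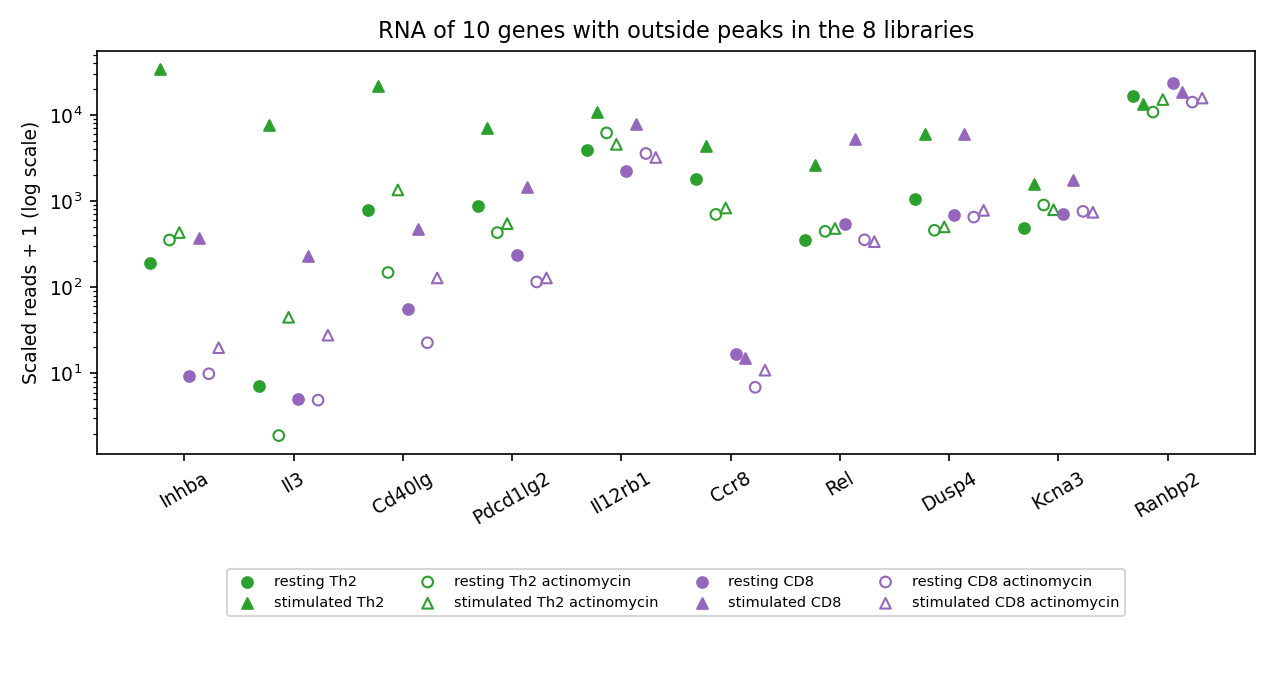
RNA level of 10 genes with outside peaks in each of the 8 RNA-seq libraries (y axis, scaled reads + 1, log axis). Green is Th2 and purple CD8, triangles are stimulated, and open symbols are with actinomycin D. The stimulated Th2 library without actinomycin D holds the highest Inhba value, 33997.7, and Ranbp2 stays between 10793.9 and 23207.6.

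With actinomycin D, over 4 matched pairs, RNA of 104 of the 334 genes with outside peaks was lower relative to the scaled total and that of 28 was higher, that is 132 genes (39.5%), against 38.7% of all genes (21.9% lower, 16.8% higher). The total count was thus near the background, while the lower calls made up 31.1% of these genes and the higher calls 8.38%. The median log2 fold change was -0.34 for genes with outside peaks, -0.04 for genes with inside peaks only and 0.002 over all genes. The values are relative to each library's total, so a higher value need not be more RNA per cell.

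Zfp84 was at 694.6 to 1013.7 scaled reads in the 4 untreated and 134.8 to 170.9 in the 4 treated libraries, with no overlap (log2 fold change -2.47, SE 0.182, limma adjusted p = 0.00137). Wee1, the kinase that restrains entry into mitosis, was at 354.5 to 1010.8 and 87.4 to 134.1 (log2 fold change -2.44, SE 0.302, limma adjusted p = 0.00315). Its only peak is the outside peak with the Pumilio-type word printed above. That peak scored 13, the lowest score among outside and inside peaks, and its part in the fall was not tested. Under the naming rule (mean of at least 250 scaled reads, same direction in every pair), Cd40lg (-2.40), Pdcd1lg2 (-2.31) and Zmym1 (-2.24) followed. The largest increase under that rule was in Gabbr1, a GABA-B receptor subunit (0.93, at 780.9 to 2012.7 untreated and 2090.6 to 2554.2 treated). Hgsnat, a lysosomal acetyltransferase (0.83), Pck2, mitochondrial PEPCK (0.82), Ppp6r2 (0.80) and Ppt1, a lysosomal thioesterase (0.78), came next.

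Of the list genes with outside peaks described above, Rps6 (-2.27), Runx3 (-1.0), Ifnar1 (-0.84), Ccnd2 (-0.78), Cd28 (-0.74), Papolg (-0.73) and Hnrnpa1 (-0.45) fell with actinomycin D, Pabpn1 (0.72) and Eif4ebp2 (0.45) rose, and the others did not pass. The Rps6 value rests on few reads, 65.4 to 145.8 scaled reads in the untreated and 16.2 to 31.3 in the treated libraries. Over the whole lists, 19 of 34 tested T cell transcription factors fell and the others did not pass (median log2 fold change -1.14), and 46 of 155 translation and ribosomal protein genes rose and 25 fell (0.46), beside 21.9% lower and 16.8% higher over all genes. These totals are mostly of genes without outside peaks, since 3 of the 34 and 2 of the 155 had one. The count of 132 was 85 without the block for matched condition, 63 by edgeR, which left out the stimulated CD8 library with actinomycin D, 67 without the stimulated CD8 pair, 85 without the resting Th2 pair and 86 without the resting CD8 pair.

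Between cell types, RNA of 28 of the 334 genes with outside peaks was higher in CD8 and that of 46 higher in Th2, that is 74 genes (22.2%), against 21.5% of all genes (9.97% and 11.5%). Genes with inside peaks only passed in 19.2%. P2rx3, an ATP-gated channel with 1 of 2 peaks outside, was at 4666.7 to 9183.4 scaled reads in CD8 and 30.6 to 52.4 in Th2 libraries, with a log2 difference of 7.5. Under the naming rule, Dgkh, a diacylglycerol kinase (3.66), Adamts14, a secreted protease (2.21), Pik3ap1, a PI3K adaptor (1.91), and Rnf125 (1.80) were next.

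Higher in Th2 were the ephrin Efna5, at 416.6 to 1550.5 in Th2 and 0 to 2.4 in CD8 libraries (log2 difference -8.28, which depends on the added 1 read), Ccr8, at 698.9 to 4295.9 and 5.9 to 15.6 (-6.96), Dlg2 (-5.40), Inhba (-5.12, SE 1.109, limma adjusted p = 0.0158) and Cpd, a carboxypeptidase (-4.98). The cell types did not overlap in Efna5, Ccr8 or P2rx3. Inhba overlapped, since the stimulated CD8 library (375.8) was above the resting Th2 libraries (191.5 and 352.2).

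Among list genes with outside peaks, Il6ra was at 1104.8 to 1371.2 scaled reads in Th2 and 64 to 109.1 in CD8 libraries (log2 difference -3.97, limma adjusted p = 1.63e-05). Ccnd2 (-0.95) and Ikzf3 (-0.94) were also higher in Th2, and Il12rb2 (1.77), Runx3 (1.42) and Il2rb (0.62) in CD8. Over the whole lists, 7 of 23 cytokine and receptor genes were higher in CD8 and 9 in Th2. Of 34 T cell transcription factors, 5 were higher in CD8 and 10 in Th2, beside 9.97% and 11.5% over all genes. B cell markers summed to 9010 to 12878 scaled reads in Th2 and 3363 to 8224 in CD8 libraries, and stromal markers to 1190 to 1938 and 357 to 807, and their part in these differences was not tested. The count of 74 was 124 with a replicate block by condition, which included all 74, and 41 by edgeR, which again left out the stimulated CD8 library with actinomycin D. It was 49 without the resting CD8 library, 46 without the resting CD8 library with actinomycin D, 42 without the resting Th2 library with actinomycin D, and 42 without the stimulated CD8 library with actinomycin D.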

How the data were processed

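Cells and libraries are described above. The peak score column was deposited by the authors as a whole-number score with no unit given. Per the methods, Bowtie2 placed the GCLiPP reads on mm10, duplicate reads were merged, and peaks were called in 3′ UTRs on the reads of all libraries together. The RNA-seq values deposited by the authors are a gene-level signal, reads per gene divided by a library factor. Per the methods, RNA for RNA-seq was an aliquot selected with oligo-dT beads, and the libraries were made with a stranded total RNA kit. The methods also name alignment to mm10 with STAR and FPKM as the unit, but the table's values are not scaled by gene length. The sources used here give neither the counter, its annotation nor its strand setting. The values of all 8 libraries were whole multiples of 1 read (100% within 0.01 read), and read counts were recovered from them. The stimulated CD8 library with actinomycin D was used by limma but left out of edgeR, although its values were whole reads too. Its value of 1 read (0.99339) was near 1, as was that of the resting CD8 library with actinomycin D (0.98429), which edgeR kept. For actinomycin D and cell type, the edgeR and limma counts therefore differ both in method and in libraries.

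Peak names were reduced to a gene symbol and compared with the table's intervals, GENCODE M21 and RefSeq GRCm38.p6 (Python 3.11.15, pandas 2.3.3). Sequences came from M21 transcripts, and no genome sequence was used. RNA was tested with limma 3.58.1 (R 4.3.3) on log2(value + 1) with a mean-variance trend, a minimum mean of 50 and Benjamini-Hochberg adjusted p under 0.05 over all genes. The actinomycin contrast had matched condition as a block, which pairs libraries of 1 cell type and stimulation. The stimulation contrast had cell type as a term in the 4 untreated libraries, and the cell type contrast had stimulation and actinomycin D. Alternatives included edgeR 4.0.16 on recovered reads. Scripts were tested on simulated data.

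Named genes were the 15 of highest outside score, the 10 with most outside peaks, the 10 with the farthest, the 5 of largest change in each direction per contrast (mean of at least 250, same direction in every pair) and list members. Predicted genes, Cd40lg, Ccr8, Csnk1g3 and Hs2st1 in the account of peaks in neither annotation, and the RNA values of Rel, Dusp4, Il12rb1, Kcna3 and Pdcd1lg2 under stimulation were chosen after values were seen. The members, lists and tests were chosen with earlier results of these data known. One list member and its list are not reported here.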

Additional observations from a re-analysis of the deposited data

Results flagged for a closer look

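Among the named genes with outside peaks, the stimulation change differed between libraries with and without actinomycin D for 16 of the 67 tested (limma interaction term, Benjamini-Hochberg adjusted p under 0.05), and over all genes 14.5% passed. These genes were partly chosen for large stimulation or actinomycin changes in the same libraries, or after their values were seen, so their count is a description and is not to be read against that share. The interaction is the log2 stimulation change with actinomycin D minus that without it. Per the methods, actinomycin D followed the stimulation and did not precede it. It was negative for Inhba (-5.753), Egr3 (-5.49), Rel (-3.065), Dusp4 (-2.607), Pdcd1lg2 (-2.569), Gem (-2.499), Il12rb1 (-1.933), Adamts14 (-1.782), Kcna3 (-1.595) and Dlg2 (-1.092). It was positive for Oip5 (1.755), Rnf125 (1.662), Wee1 (1.244), Ston2 (1.046), Cdc27 (1.022) and Incenp (0.953). Rel, for example, was at 2634.4 and 352.7 scaled reads in stimulated and resting Th2 cells without actinomycin D and at 479.6 and 444.2 with it, and at 5181.1 and 536 against 336.8 and 354.3 in CD8 T cells. Over all tested genes with outside peaks, 61 of 334 (18.3%) passed.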

How the results depend on the processing

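Of the 973 outside peaks, 546 lay at least 1000 nt from the gene, and the count was between 865 and 982 under the 4 other definitions, one of them chosen after seeing the data. No paired analysis was possible for the peaks because the pooled list has no value per library. For actinomycin D, the 132 genes called became 85 with no replicate block, 63 with edgeR (on 7 libraries, without stimulated CD8 with actinomycin D, as also for cell type) and 67 to 130 when 1 pair was left out. For stimulation, the 54 became 0 with all genes of mean above 0 and 0 with all 8 libraries (102 and 66 at an unadjusted p under 0.05, limma), and 49 with edgeR. Leaving out a stimulation library left no residual degrees of freedom and was not run. For cell type, the 74 became 124 with the replicate block by condition, 41 with edgeR (chosen after seeing the data) and 42 to 67 when 1 library was left out. Over all genes edgeR called 2118 (actinomycin D) and 1436 (cell type), against 4245 and 2358 with limma. Of 1766 alternative values for 183 named gene results, 1578 kept direction and side of the threshold, 161 lost the call, 27 gained it and 0 reversed. The pooled list, unknown score and single libraries limit what can be compared.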

Other observations

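Of the 346 placed peaks named for 1 cell type and left out above, 9 also lay outside the gene. The CD8 set held 3 peaks of Hnrnpa1, with scores of 23, 53 and 25 at 1376, 1412 and 1671 nt, which lie near its outside peak of 263, and single peaks of Il2rb (48, 1228 nt), Grap2 (14, 886 nt) and Rab21 (13, 1386 nt). The Th2 set held single peaks of Pabpn1 (47, 449 nt), Cdc37 (21, 3476 nt) and Pggt1b (13, 3479 nt).

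Neighbouring GTPases of the immunity-associated family, chosen after their values were seen, differed in annotation. Gimap3 had 7 of 8 peaks outside (37 to 519 nt, highest score 107), all within both annotations, and Gimap5 had 7 of 9 outside (481 to 1886 nt, highest score 39), all in neither. Slfn8, a Schlafen gene, had 7 of 9 outside in neither annotation (686 to 3649 nt, highest score 44).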
